A study of Homo sapiens with 2 samples.

Results

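The response of 2 gastric cancer cell lines to SET7/9 knockdown was compared gene by gene, as the log2 ratio of SET7/9 siRNA to negative control (NC) siRNA in MKN45 minus the same ratio in MKN74. Members were taken by a rule on detection alone: a probe had to be well above background in both channels on both arrays, with control spots and outlier spots left out and the remaining spots averaged. This left 17362 of 34123 gene probes, or 12139 of 20541 named genes, each gene being read at its brightest probe. MKN74 and MKN45 are established gastric adenocarcinoma lines, grown in RPMI1640 with FBS. Each was electroporated with 50 nM siRNA and harvested after 48 hrs, and 1 two-colour array per line carried its NC siRNA RNA in Cy3 and its SET7/9 siRNA RNA in Cy5. The SET7/9 siRNA that was hybridised is not given in the sources used here. With 1 culture of each line there was no replicate and no test, so that the cell line and the culture cannot be told apart.

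SET7/9, encoded by SETD7, is a lysine methyltransferase that adds a methyl group to histones and to other proteins, among them transcription factors. Interferon response genes encode antiviral proteins and are switched on by STAT and IRF factors, metallothioneins bind zinc and copper and are switched on by MTF1, sterol synthesis genes follow the SREBP factors, and mitosis genes are made as cells enter division. These programmes are all used by epithelial cancer cells, at levels that vary between lines.

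A positive response difference means that the ratio was higher in MKN45 than in MKN74. A dye bias that a probe has equally on both arrays cancels in it, while a bias that varies with signal does not where the lines differ in level. Within a line a dye bias does not cancel, as the dyes were not swapped. A direction shared by both lines therefore cannot be told apart from it. Signals are given below as processed signals in arbitrary units, NC siRNA first and SET7/9 siRNA second. They were not scaled between arrays: the median over measured probes was 473 and 474 in MKN74 and 394 and 395 in MKN45. The error beside a log2 ratio is that of the scanner software's spot model, and the median combined error of a difference was 0.29. Over 629 probes printed in repeat, the pooled spot SD of the difference was 0.12, which covers the variation within the arrays and none between cultures. Of 10 epithelial markers, 9 were detected in MKN74, CEACAM6 being the exception, and all 10 in MKN45. The fibroblast, leukocyte and endothelial markers that were detected had mean signals of at most 337, where the epithelial adhesion gene EPCAM had 27024 and 27582 in MKN74 and 22326 and 22385 in MKN45. MET, a receptor gene known to be amplified in MKN45, had signals of 2719 and 2591 in MKN74 and 79646 and 84236 in MKN45.

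SETD7, the target, had lower signals in both lines. Its signals were 369 and 90.1 in MKN74 and 197 and 51.2 in MKN45 at the brightest probe, on chromosome 4 from 140427692 to 140427751 of GRCh37. The log2 ratio was -2.03 in MKN74, with a spot error of 0.28, and -1.95 in MKN45, with one of 0.28, a difference of 0.086 (combined error 0.39). The second SETD7 probe, dimmer in the control, had log2 ratios of 0.24 in MKN74 and -0.23 in MKN45, a difference of -0.46, so that the probes of this gene did not show the same response.

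For most genes the response difference was smaller than its spot error. The response difference had a median of -0.0024 over probes, with quartiles of -0.11 and 0.11, and ran from -3.11 to 1.86. It was at least 1.5-fold higher in MKN45 for 278 probes (1.6%) and at least 1.5-fold lower for 161 (0.927%). Counted once at the brightest probe, 147 genes (1.21%) were higher and 98 (0.807%) lower. Within a line, SET7/9 siRNA gave a signal at least 1.5-fold higher for 70 genes (0.577%) and lower for 119 (0.98%) in MKN74, and higher for 57 (0.47%) and lower for 78 (0.643%) in MKN45. Of the 278 higher probes, 99 were past 1.5-fold in MKN74 alone, where SET7/9 siRNA gave the lower signal, 36 in MKN45 alone and 143 in neither line. Of the 161 lower probes, 29 were past it in MKN74 alone, 53 in MKN45 alone, 78 in neither and 1 in both, in opposite directions. The ratios had opposite signs in 224 of the higher and 117 of the lower probes. Differences of this size were mostly found at dim probes: the 3473 dimmest probes held 64.9% of them, and the 3473 brightest 1.59%. After background correction by normexp, a model that keeps signals positive and damps the ratios of dim probes, and loess dye normalization, 37 probes were past the cutoff on the higher side and 16 on the lower. Among the 2373 probes at least 2-fold brighter in MKN45, 4.97% were higher and 1.26% lower.

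**Figure D1:**
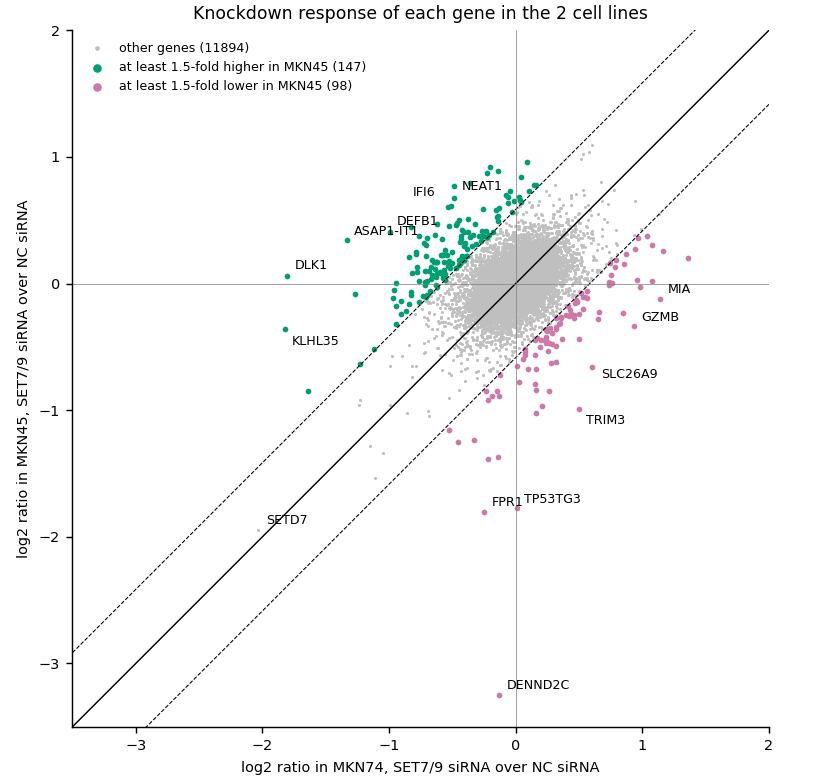
Log2 ratio of SET7/9 siRNA to NC siRNA in MKN74 (x axis) and MKN45 (y axis) for 12139 genes at their brightest probe, 1 array per line. The solid line marks equal ratios and the dashed lines a 1.5-fold difference. Green points (147 genes) had the higher ratio in MKN45 and purple points (98 genes) the lower, and SETD7 lies near the line of equal ratios.

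The 44 gene lists held 925 measured genes, of which 14 were at least 1.5-fold higher and 7 at least 1.5-fold lower, against 1.21% and 0.807% of all genes. Single genes past the cutoff were therefore few in any programme, and what is given for the lists is mostly small differences in many members. The medians have no test. Of the 43 lists with at least 6 measured genes, interferon effectors had the highest median difference (0.29), followed by metallothioneins (0.22), AHR and retinoid target genes (0.17), membrane-bound mucins and anion exchangers (0.15), and RNA sensors with interferon transcription factors (0.14). The lowest medians were those of gastric mucosa differentiation genes (-0.24), keratins (-0.20), sterol synthesis genes (-0.19), mitosis genes (-0.12) and mitochondrial respiratory-chain genes (-0.096). The other 33 medians lay between -0.073 and 0.11, and the median over all genes was -0.0044. Over all genes, 51.1% of the differences were below 0 and 48.9% above.

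**Figure D2:**
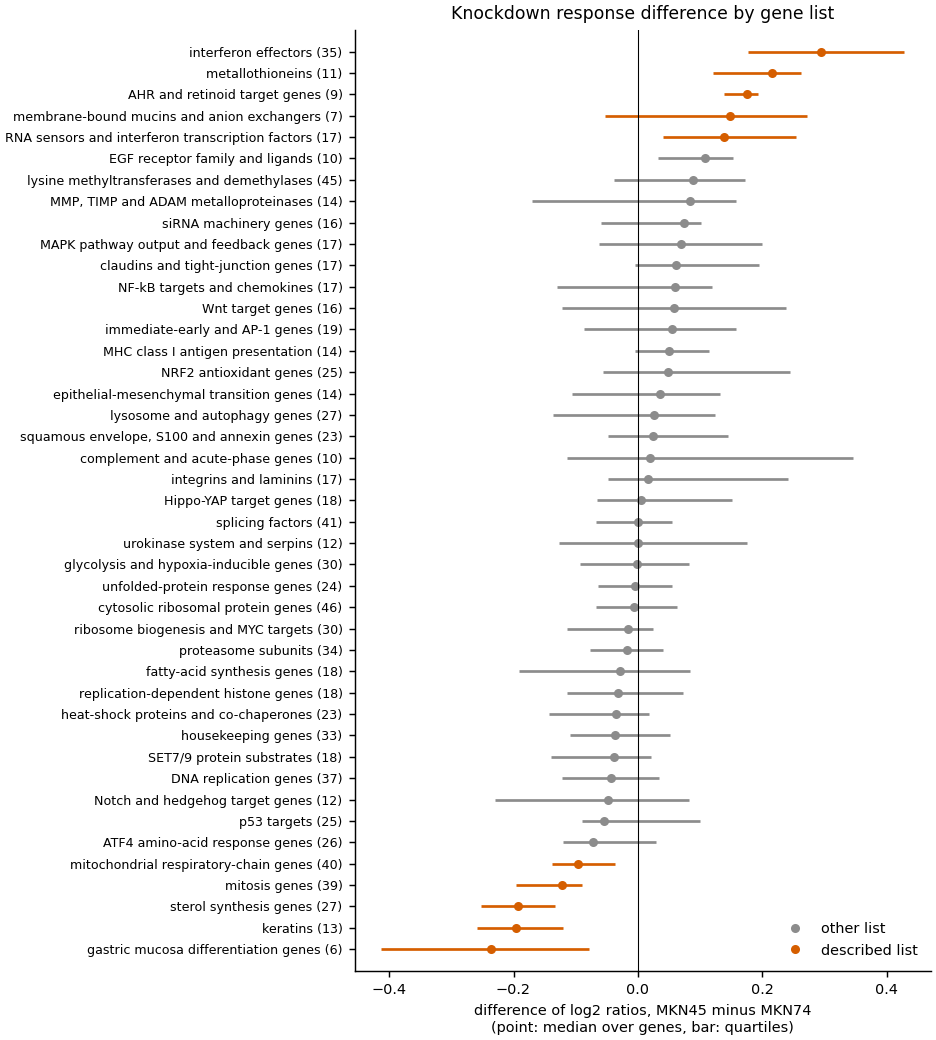
Response difference (MKN45 minus MKN74, log2 scale) of 43 gene lists, with the number of measured genes in parentheses. Points are medians over genes and bars run between the quartiles, which describe the spread over genes and not over replicates. The 5 lists at either end are in orange, with interferon effectors highest at 0.29 and gastric mucosa differentiation genes lowest at -0.24.

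Interferon effectors, the antiviral proteins at the end of the pathway, mostly had lower signals with SET7/9 siRNA in MKN74, and went both ways in MKN45. Of 43 listed genes, 35 were measured. In MKN74, 31 of the 35 had a log2 ratio below 0, with a median of -0.25. In MKN45, 20 of the 35 had one above 0 and 15 one below 0, with a median of 0.055. IFIT1 (-0.58 in MKN74 and -0.38 in MKN45) and DDX60 (-0.60 and -0.31) were among those lower in both lines. The response difference was above 0 for 31 members, against 48.9% of all genes, and past 1.5-fold for 3, all higher in MKN45. It was above 0.23, the normal bound on the spot-to-spot variation of a difference, for 22 members, where 10.8% of all genes were, and below -0.23 for 1, MX2.

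IFI6, an interferon-inducible mitochondrial protein, had the largest difference of the list. Its signals were 1398 and 968 in MKN74 and 148 and 225 in MKN45, at a probe on chromosome 1 from 27992837 to 27992896 of GRCh37. The log2 ratio was -0.53 in MKN74, with a spot error of 0.21, and 0.60 in MKN45, with one of 0.21, so that the direction was opposite in the lines, and the difference was 1.13 (combined error 0.30). OASL, a relative of the oligoadenylate synthetases that enhances RNA sensing, had signals of 124 and 70.3 in MKN74 and 274 and 289.9 in MKN45. SET7/9 siRNA gave the lower signal in MKN74 alone, at a log2 ratio of -0.82 against 0.081, and the difference was 0.90 (combined error 0.31). IFIT2, which binds viral RNA, had signals of 1179.9 and 693 in MKN74 and 37.8 and 38.3 in MKN45 and a difference of 0.78 (combined error 0.33). In MKN45 this gene was close to the detection limit, and the Cy5 signal of its other probe was not well above background there.

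Families within the list differed in the same direction. Among the oligoadenylate synthetases, which make the activator of RNase L, OAS1 was at -0.22 in MKN74 and 0.20 in MKN45, OAS2 at -0.0065 and 0.46, and OAS3 at -0.22 and 0.12. The interferon-induced transmembrane proteins, which block virus entry, were among the brightest members. IFITM3 had signals of 43361 and 34711 in MKN74 and 11227 and 12073 in MKN45 and a difference of 0.43 (combined error 0.29). IFITM1 had differences of 0.44 and 0.57 at its probes, and IFITM2 was at 0.35. These genes are close copies of each other, so that their probes may share transcripts. ISG15, the ubiquitin-like modifier, differed by 0.29, and its conjugating enzymes UBE2L6 and HERC5 by 0.42 and 0.35. MX1, a GTPase that traps viral particles, was at -0.12 and 0.36. The exceptions with a difference below 0 were MX2 (-0.28), ISG20 (-0.15), LGALS3BP (-0.085) and SP100 (-0.024). SP100 was below 0 at its brightest probe alone, the others being at 0.24 and 0.86.

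The lines did not express these genes at the same level. IFI27, for example, had signals of 5822 and 4208 in MKN74 and 96.6 and 91.3 in MKN45, and its difference was 0.39. Among the 13 effectors whose level was within 2-fold between the arrays, the median difference was 0.26, against 0.29 over all 35. CMPK2, PARP9 and SP110 are of this kind or brighter in MKN45, at differences of 0.52, 0.49 and 0.43. The list median stayed between 0.24 and 0.35 under the other ways of background correction, scaling and filtering. Of the 8 effectors without a value, IFI44, IFI44L, SAMD9 and XAF1 were detected in MKN74 only, EPSTI1 in MKN45 only, SAMD9L and TRIM22 in neither line, and RSAD2 in both lines but not in every channel.

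The interferon-stimulated response element, searched on both strands as GAAA, any 2 bases, and GAAA again, was found in the RefSeq promoter window of 22 of 29 measured effectors with one (75.9%), against 4.38% of 27305 genes. The window ran from 250 bases before to 50 bases after the gene start in GRCh38.p14. It is shown over 30 bases, in capitals, for the 3 members with the largest differences among those with the element before the start. For PARP9 and MX1 the strand opposite to the gene is printed.
IFI6, chr1:27672329-27672358, - strand: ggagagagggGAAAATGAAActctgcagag
PARP9, chr3:122564322-122564351, + strand: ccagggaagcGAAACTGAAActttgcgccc
MX1, chr21:41431844-41431873, - strand: tttattcacgGAAAGAGAAAcagagtgacc
The median difference was 0.28 for the 22 members with these letters and 0.41 for the 7 without, among them OAS1, SP110 and CMPK2. No window was given for OASL, IFIT2, OAS2, IFITM2, MX2 and USP18.

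RNA sensors and interferon transcription factors stand before the effectors in the pathway. Of 17 measured members, 14 had a difference above 0, against 48.9% of all genes, with a median of 0.14. Past 1.5-fold was 1 member, where 1.21% of all genes were higher, which is too few to describe the list. TLR3, the endosomal sensor of double-stranded RNA, had signals of 119 and 74.4 in MKN74 and 47.5 and 50.8 in MKN45. Its log2 ratio was -0.68 in MKN74, with a spot error of 0.22, and 0.099 in MKN45, with one of 0.24, a difference of 0.78 (combined error 0.32). IRF9, the DNA-binding part of the interferon-activated factor that holds STAT2, had signals of 929 and 943 in MKN74 and 207 and 314 in MKN45 and a difference of 0.58 (combined error 0.29), with the higher signal in MKN45 after SET7/9 siRNA. STAT2 differed by 0.04. Of the cytosolic RNA sensors, IFIH1 differed by 0.25 and EIF2AK2 by 0.23, while RIGI differed by 0.15 at its brightest probe and by 0.73 at the other. The interferon receptor chains were not alike, IFNAR1 being at 0.29 and IFNAR2 at 0.0094. DHX58, a regulator of these sensors, went the other way at -0.39, and was dim in MKN45.

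Metallothionein genes had higher signals with SET7/9 siRNA in most cases, and more so in MKN45. With SET7/9 siRNA in Cy5 on both arrays, the shared direction cannot be told apart from a dye bias of these probes. The list also holds the genes of the factor MTF1 and of the zinc exporter SLC30A1. Over its 11 measured members, the log2 ratio was above 0 for 9 in MKN74 and for all 11 in MKN45. Of 13 listed genes 11 were measured, and 10 of these had a difference above 0, against 48.9% of all genes. The median was 0.22. None passed 1.5-fold. MT2A, the main human metallothionein, had signals of 86078 and 116720.0 in MKN74 and 2576 and 4110.2 in MKN45. Its log2 ratio was 0.44 in MKN74, with a spot error of 0.21, and 0.67 in MKN45, with one of 0.21, a difference of 0.23 (combined error 0.30). The MT1 genes lie beside it on chromosome 16. MT1L differed by 0.31, MT1F by 0.29, MT1A by 0.23, MT1E by 0.19 and MT1X by 0.058. MTF1, the zinc-sensing factor that drives these genes, was at -0.17 in MKN74 and 0.12 in MKN45. The zinc exporter SLC30A1, another target of MTF1, was the only member below 0, at -0.12. The MT1 transcripts are near-identical, so that their probes are not separate measurements. They were far brighter in MKN74, as MT1X shows with signals of 24825 and 26658 in MKN74 and 909 and 1017 in MKN45. The list median was -0.043 when the background-subtracted ratios were centred on the median of each array without dye normalization. It was 0.032 over the 3 members of like level in both lines, MT3, MTF1 and SLC30A1, which include no MT1 gene and not MT2A.

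The metal response element, searched as TGCACNC or TGCGCNC on both strands, was in the promoter window of 5 of 6 members with a window (83.3%), against 33.4% of all genes. It is shown in capitals for MT2A and MT1H, as the letters by which MTF1 targets are recognised.
MT2A, chr16:56608420-56608449, + strand: gcagagccgggTGCGCCCggcccagtgcgc
MT1H, chr16:56669643-56669672, + strand: gtgcaccgaccTGCGCTCagggtactttgc

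**Figure D3:**
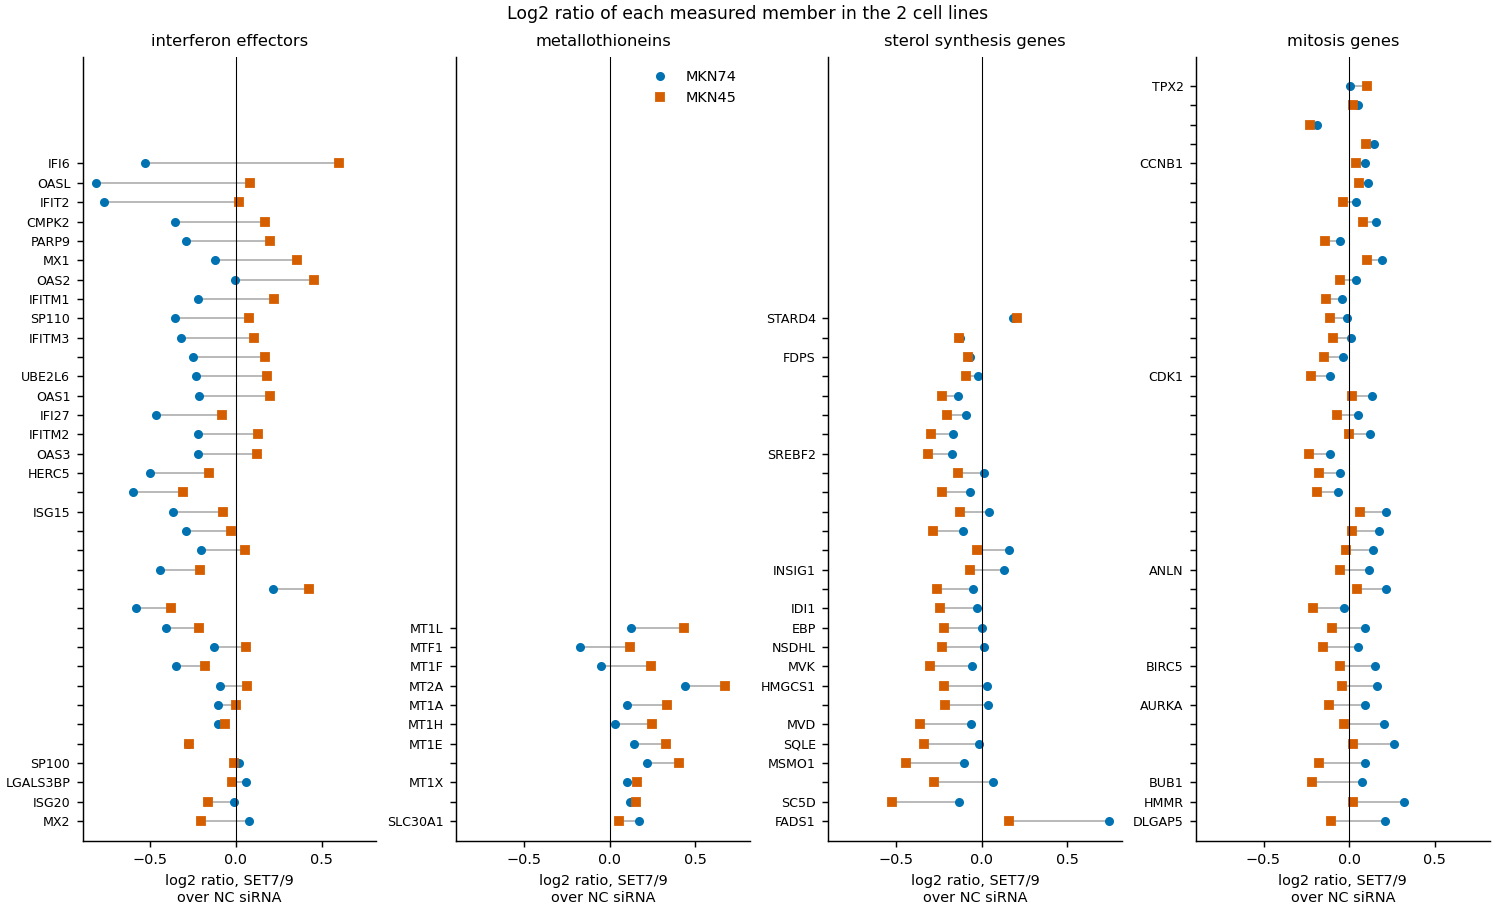
Log2 ratio of SET7/9 siRNA to NC siRNA in MKN74 (blue circles) and MKN45 (orange squares) for each measured member of 4 lists, 1 array per line, with a grey line between the ratios of a gene and labels for the genes named in the text. MKN45 lies to the right for 31 of 35 interferon effectors and 10 of 11 members of the metallothionein list, which includes MTF1 and SLC30A1. It lies to the left for 26 of 27 sterol synthesis genes and 38 of 39 mitosis genes.

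Sterol synthesis genes had lower signals with SET7/9 siRNA in MKN45, and about equal signals in MKN74. All 27 listed genes were measured. In MKN45, 25 of the 27 log2 ratios were below 0, with a median of -0.23, and in MKN74 the median was -0.027. The difference was below 0 for 26 of 27, against 51.1% of all genes. It was below the spot bound for 10, where 9.67% of all genes were, and past 1.5-fold for none. The difference was larger than its combined error for 5 genes, so that the pattern lies in the number of members and not in single genes.

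Members along the whole pathway lay below 0. HMGCS1, at the start of the mevalonate branch, had signals of 619 and 633 in MKN74 and 1587 and 1362 in MKN45 and a difference of -0.25 (combined error 0.29). The later enzymes of this branch, MVK, MVD and IDI1, were at -0.25, -0.30 and -0.22, while FDPS was at -0.015. SQLE, which starts the sterol branch from squalene, had signals of 3442 and 3401 in MKN74 and 4385 and 3469 in MKN45 and a difference of -0.32 (combined error 0.29). The enzymes after it, MSMO1, NSDHL, EBP and SC5D differed by -0.34, -0.25, -0.22 and -0.39. INSIG1, which holds back SREBP, differed by -0.19, and SREBF2, the gene of the sterol-specific SREBP, by -0.14. The exception above 0 was STARD4, a sterol carrier, at 0.022.

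FADS1, a fatty-acid desaturase that SREBP also drives, stood apart in size. Its signals were 555 and 928 in MKN74 and 3826 and 4275 in MKN45. The log2 ratio was 0.74 in MKN74, with a spot error of 0.22, and 0.16 in MKN45, with one of 0.20, a difference of -0.58 (combined error 0.30), and it was MKN74 that was past 1.5-fold. Fatty-acid synthesis genes, the other SREBP branch, had a median difference of -0.028 over 18 genes, with 11 below 0. The sterol list median lay between -0.21 and -0.19 under the alternatives, and was -0.19 over the 17 members of like level in both lines. TCACNCCAC, a strict spelling of the sterol regulatory element, was in the promoter window of 1 of 20 members, SREBF2, and of 1.39% of all genes.

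Mitosis genes had a small difference with little spread. All 39 listed genes were measured and 38 were below 0, against 51.1% of all genes, with a median of -0.12. In MKN74, 29 of 39 log2 ratios were above 0 (median 0.09), and in MKN45, 25 of 39 were below 0 (median -0.053). None passed 1.5-fold, and 6 were below the spot bound, where 9.67% of all genes were. The difference was larger than its combined error for 3 genes. Under the alternative ways of processing, the median of mitosis genes lay between -0.18 and -0.12. That of housekeeping genes, given below for comparison, lay between -0.14 and -0.029, so that these ranges overlapped. In RNA of a whole culture, fewer dividing cells and less RNA per cell cannot be told apart. DLGAP5, a spindle protein that stabilises kinetochore fibres, had signals of 2619 and 3026 in MKN74 and 1743 and 1621 in MKN45 and a difference of -0.31 (combined error 0.29). HMMR, another spindle protein, had signals of 3129 and 3909 in MKN74 and 2972 and 3017 in MKN45 and a difference of -0.30 (combined error 0.29). The checkpoint kinase BUB1 differed by -0.29, the kinase AURKA by -0.21, and BIRC5, a subunit of the chromosomal passenger complex, by -0.20. CDK1, which drives entry into mitosis, differed by -0.11 and its cyclin CCNB1 by -0.052. TPX2 was the exception, at 0.10. DNA replication genes, which act earlier in the cycle, had a median of -0.043 with 23 of 37 below 0, and replication-dependent histone genes -0.032 with 11 of 18.

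The cell cycle genes homology region, searched as TTTGAA on both strands, was in the promoter window of 21 of 32 mitosis genes with a window (65.6%), against 18.2% of all genes. It marks genes that are repressed outside division, and is shown in capitals for DLGAP5, HMMR and ANLN, as examples with the letters before the start. Capitals mark a single match per window. The HMMR window holds another on the same strand, and the ANLN window another on the opposite strand, both in lower case.
DLGAP5, chr14:55191706-55191735, - strand: tctcacccatctTTTGAActggcccttcac
HMMR, chr5:163460592-163460621, + strand: aatgtggggagaTTTGAAtttgaaaccggt
ANLN, chr7:36389830-36389859, + strand: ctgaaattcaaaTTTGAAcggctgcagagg
The median difference was -0.12 for the 21 members with these letters and -0.15 for the 11 without.

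Respiratory-chain genes, which encode the subunits of oxidative phosphorylation, had a smaller difference of the same sign. Of 40 measured genes, 34 were below 0, against 51.1% of all genes, with a median of -0.096. None passed 1.5-fold and 1 was below the spot bound, where 9.67% of all genes were. The number of genes with a difference larger than its combined error was 0. NDUFA5, a subunit of the first complex, had signals of 3209.6 and 4133 in MKN74 and 3777 and 4156 in MKN45 and a difference of -0.23 (combined error 0.29). COX6C, of cytochrome c oxidase, had signals of 26070.5 and 30502 in MKN74 and 24850.5 and 25075 in MKN45 and a difference of -0.21 (combined error 0.29). ATP5F1A, the alpha subunit of ATP synthase, differed by -0.20, while COX5B was at 0.12. Housekeeping genes, given for comparison, had a median of -0.036 over 33, and GAPDH was at 0.079. Under the alternative ways of processing, the housekeeping median lay between -0.14 and -0.029. That of respiratory-chain genes lay between -0.14 and -0.078, so that the 2 ranges overlapped.

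Few gastric differentiation genes could be compared. Of 32 gastric mucosa genes, only 6 were measured in all 4 channels. Of these, 5 were below 0, against 51.1% of all genes. FOXA1, a pioneer factor of gut epithelium, was the member past 1.5-fold. Its signals were 23.3 and 41.2 in MKN74 and 439 and 374 in MKN45 over 10 spots on each array. The log2 ratio was 0.85 in MKN74, with a spot error of 0.30, and -0.23 in MKN45, with one of 0.21, a difference of -1.08 (combined error 0.37). TFF1, a trefoil peptide of the surface mucous cells, had signals of 54.0 and 67.4 in MKN74 and 3557 and 3233 in MKN45 and a difference of -0.46 (combined error 0.31). FOXA1 and TFF1 were both dim in MKN74 and far brighter in MKN45. PSCA was at -0.28, the secreted mucins MUC5AC and MUC6 at -0.19 and -0.042, and PGC, the chief-cell pepsinogen, at 0.14. Of these 6, MUC6 and PGC alone had like levels in both lines, and their median was 0.048, on the other side of 0 from the -0.24 of the list. Of the 26 members without a value, 11 were detected in MKN45 only and 3 in MKN74 only. A further 5 were detected in both lines but not in every channel, 5 in neither line, and 2 had no probe. The like shares over all genes are not given here, so that these counts describe the list alone.

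Of 13 listed keratins that were measured, 10 had a difference below 0, against 51.1% of all genes. The median was -0.20, and none passed 1.5-fold. The list left out several measured keratins, among them KRT6C (-1.17), which was past 1.5-fold, KRT85 (0.57) and KRT10 (-0.23). KRT6A and KRT15, of stratified epithelia, were the lowest listed. KRT6A had signals of 208 and 248 in MKN74 and 57.2 and 46.2 in MKN45 and a difference of -0.56 (combined error 0.33), and KRT15, of basal cells, had signals of 309.7 and 403 in MKN74 and 364 and 345 in MKN45 and a difference of -0.46 (combined error 0.29). KRT16, KRT14 and KRT17 followed at -0.32, -0.26 and -0.20. The simple-epithelium keratins of gastric cells, KRT19, KRT8 and KRT18, were at -0.25, -0.13 and -0.12. KRT80 went the other way, at 0.45. Keratin 6, 14, 16 and 17 genes have close copies, which probes may share.

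Membrane-bound mucins and anion exchangers included SLC26A9. This gene, an anion channel of the gastric surface epithelium, had signals of 136 and 207 in MKN74 and 377 and 238 in MKN45, at 1 probe on chromosome 1 from 205882365 to 205882424 of GRCh37. Its log2 ratio was 0.60 in MKN74, with a spot error of 0.22, and -0.66 in MKN45, with one of 0.21, a difference of -1.27 (combined error 0.30), and it was the only probe past 1.5-fold in both lines in opposite directions. The other members spread widely: MUC1 was at 0.32, MUC4 at 0.15, SLC26A11 at 0.22 and SLC26A2 at -0.10. MUC4 was at 0.15 at its brightest probe alone, the others being at 0.019 and -0.058. SLC26A1 was dim, with signals of 29.0 and 14.6 in MKN74 and 20.6 and 13.1 in MKN45, and its difference of 0.34 was smaller than its combined error of 0.54. The list had 7 measured genes, 4 of them above 0, so that its median of 0.15 describes few genes. It was 0.036 with the mean over all probes of a gene and -0.10 over the 3 members of like level in both lines.

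AHR and retinoid target genes had 9 measured members, 7 of them above 0, against 48.9% of all genes, and none past 1.5-fold. CYP1B1, an AHR-induced cytochrome, was at 0.19, the quinone reductase NQO1 at 0.17, and PLAAT4, a retinoid-responsive acyltransferase, at 0.30 (combined error 0.31). TIPARP, a further AHR target that feeds back on the receptor, was the largest in size and went the other way. Its signals were 1432 and 1786 in MKN74 and 1348 and 1222 in MKN45, and its difference was -0.46 (combined error 0.29). STRA6, the receptor for retinol-binding protein, was at -0.26, and at -0.53 at its other probe. The difference was larger than its combined error for 1 member, TIPARP. Of the 19 listed genes, 10 had no value.

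The largest differences belonged to single genes of many kinds. Among the 10 lowest, 8 genes were past 1.5-fold lower with SET7/9 siRNA in MKN45, and the other two, GZMB and MIA, were past 1.5-fold higher in MKN74. The lowest was DENND2C, an exchange factor for RAB GTPases, with signals of 169.6 and 155 in MKN74 and 101 and 10.6 in MKN45. Its ratio of SET7/9 siRNA to NC siRNA was 8.66-fold lower in MKN45, a difference of -3.11 (combined error 0.44). TP53TG3 had signals of 357 and 358 in MKN74 and 39.7 and 11.6 in MKN45 and a difference of -1.78 (combined error 0.42), while another probe for it, which belongs to a group of near-identical copies, was at 0.11. FPR1, the formyl peptide receptor, differed by -1.56 (combined error 0.44). In these 3 genes the MKN45 signal after SET7/9 siRNA was between 10.6 and 11.6, near the detection limit. SLIT3, a guidance ligand, was as dim there and differed by -1.18. KRT6C was somewhat brighter, at 15.4, and differed by -1.17.

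MAGEA1, a cancer-testis antigen, was lower in MKN45 at signals further from that limit. Its signals were 543 and 492 in MKN74 and 149 and 57.8 in MKN45, a difference of -1.23 (combined error 0.32). TRIM3, a ubiquitin ligase, had ratios of 0.50 and -0.99, of opposite sign. GZMB, the cytotoxic protease granzyme B, had signals of 302 and 577 in MKN74 and 22.4 and 17.7 in MKN45 and a difference of -1.27 (combined error 0.45). MIA, a small secreted protein, had signals of 98.2 and 217 in MKN74 and 126 and 116 in MKN45 and a difference of -1.26 (combined error 0.31).

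**Figure D4:**
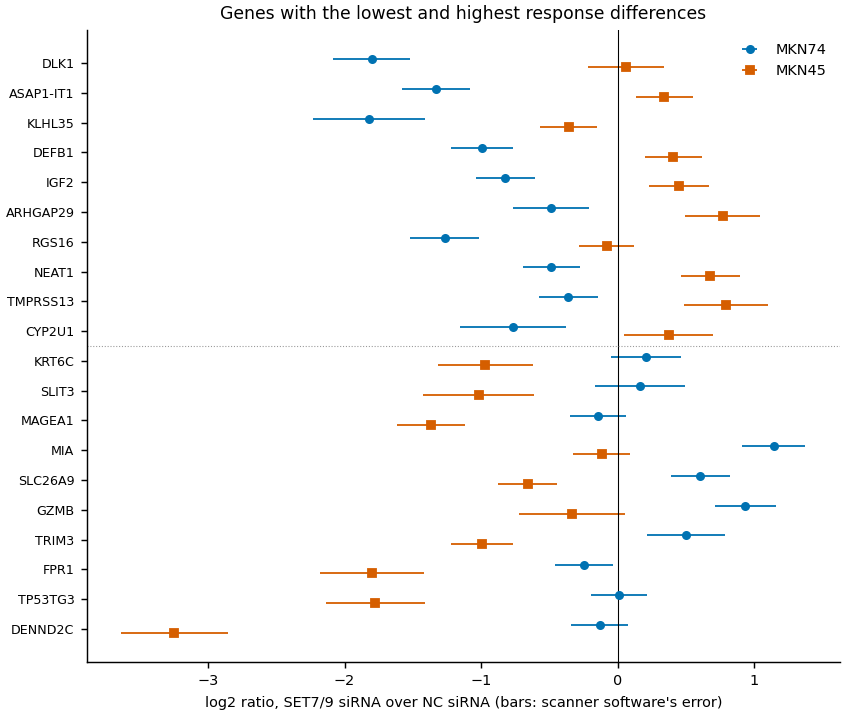
Log2 ratio of SET7/9 siRNA to NC siRNA in MKN74 (blue circles) and MKN45 (orange squares) at the brightest probe of the 10 genes with the highest response difference (above the dotted line) and the 10 with the lowest (below it). Bars are the error of the scanner software's spot model on 1 array and not a replicate SD. DLK1 and DENND2C lie at the ends, at differences of 1.86 and -3.11.

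Of the 10 highest differences, 7 were past 1.5-fold lower with SET7/9 siRNA in MKN74 and 3, those of ARHGAP29, NEAT1 and TMPRSS13, past 1.5-fold higher in MKN45. DLK1, an imprinted ligand of the Notch family, had signals of 104 and 29.7 in MKN74 and 29.5 and 30.7 in MKN45 and a difference of 1.86 (combined error 0.40). IGF2, an imprinted growth factor, was very bright in MKN74 and dim in MKN45, with signals of 152336 and 86077 in MKN74 and 63.0 and 85.9 in MKN45. Its log2 ratio was -0.82 in MKN74, with a spot error of 0.22, and 0.45 in MKN45, with one of 0.22, a difference of 1.27 (combined error 0.31). Its second probe, not detected in MKN45, was at -0.69 in MKN74. DEFB1, the constitutive epithelial beta-defensin, had signals of 261 and 131 in MKN74 and 1449.6 and 1922 in MKN45. It differed by 1.40 (combined error 0.31), and DEFB4A, the inducible beta-defensin, by 1.12 (combined error 0.36), each with opposite signs in the lines. RGS16, which turns off G-protein signals, had signals of 95.7 and 39.8 in MKN74 and 1111 and 1050.2 in MKN45 and a difference of 1.19 (combined error 0.32). ASAP1-IT1, a noncoding transcript, differed by 1.67 (combined error 0.33), and KLHL35, of the kelch family, by 1.46 (combined error 0.46).

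NEAT1, the noncoding RNA that builds paraspeckles, was near the median signal of measured probes in MKN74 and above it in MKN45. Its signals were 572 and 408 in MKN74 and 1011 and 1619.5 in MKN45, and its log2 ratio was -0.49 in MKN74, with a spot error of 0.21, and 0.68 in MKN45, with one of 0.21. The difference was 1.17 (combined error 0.30). ARHGAP29, which turns off small GTPases, was dim and differed by 1.26 (combined error 0.39), TMPRSS13, a membrane serine protease, by 1.15 (combined error 0.37), and CYP2U1, a cytochrome, by 1.14 (combined error 0.51). After normexp and loess the differences of several dim genes were far smaller, at 0.19 for KLHL35, 0.12 for CYP2U1, 0.28 for ARHGAP29, -0.21 for FPR1, -0.23 for SLIT3 and -1.15 for DENND2C. Under the same correction they were 0.99 for IFI6, 1.10 for DEFB1, 0.96 for IGF2 and -1.01 for SLC26A9. The signs of all 38 named genes past 1.5-fold were kept, and 17 of them stayed past it.

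A second probe gives a separate measurement of a gene on the same arrays. Of 3060 genes with more than 1 measured probe, the other probes had the sign of the brightest in 60.7%. Where the brightest was past 1.5-fold, this was so for 11 of 15 genes higher in MKN45 and 6 of 9 lower. Few genes were past the cutoff at every probe: 4 higher and 1 lower. RTN4RL1, a relative of the Nogo receptor, differed by 0.84 and 0.95 at its probes. GTF2IRD2 differed by 0.81 and 0.87, though it has near-identical copies. SYNE2, the outer nuclear membrane protein nesprin-2, had signals of 1201 and 919 in MKN74 and 2641 and 3063 in MKN45 and differed by 0.60 and 0.71. AKR1C1, a steroid-reducing enzyme with close relatives, had signals of 513 and 380.1 in MKN74 and 4673 and 5335 in MKN45 and differed by 0.62 and 0.59. AP1S2, a subunit of the clathrin adaptor, was the gene lower at every probe, at -0.70 and -0.77.

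Other genes with the same sign at every probe were short of the cutoff at 1 or both of them. FGFR2, a growth factor receptor, differed by 0.48 and 0.55, and LGALS9, a galectin that interferon induces, by 0.64 and 0.44. On the lower side were MPC1, the mitochondrial pyruvate carrier, at -0.58 and -0.76, MZT2A, of the gamma-tubulin complex, at -0.63 and -0.57, and KHDRBS3, an RNA-binding protein, at -0.68 and -0.52. ITPK1, an inositol phosphate kinase, was at -0.75 and -0.48, PMEPA1, which restrains TGF-beta signals, at -0.55 and -0.47, PALLD, an actin-binding protein, at -0.55 and -0.47, and THRA, a thyroid hormone receptor, at -0.46 and -0.57. In all 8 of the lower genes the ratio was above 0 in MKN74 at both probes.

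**Figure D5:**
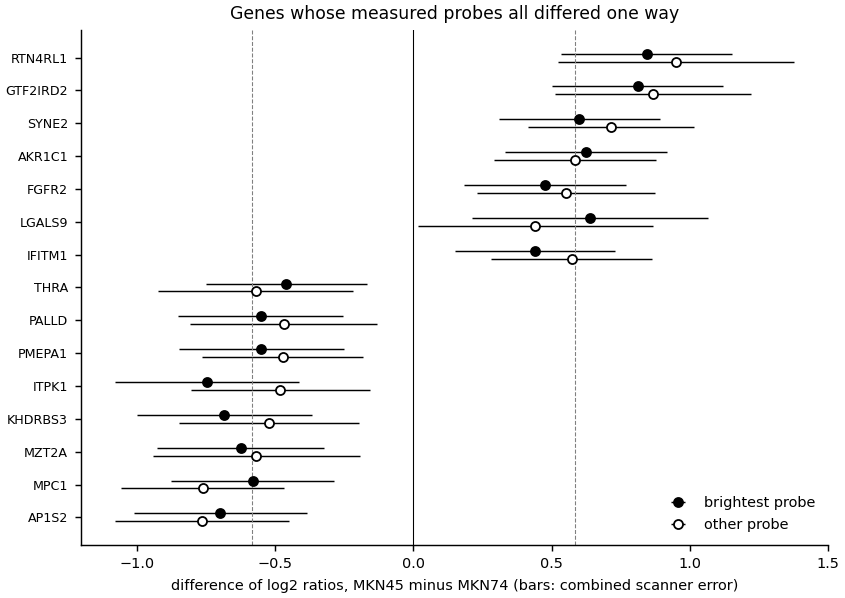
Response difference (MKN45 minus MKN74, log2 scale) at each measured probe of 7 genes higher and 8 genes lower in MKN45, ranked by the smaller of their probes' differences. Filled circles are the brightest probe, open circles the other probe, bars the combined error of the scanner software's spot model, and dashed lines the 1.5-fold cutoff. All were chosen for having probes of the same sign, and RTN4RL1 lies highest among the higher genes.

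Genes that the study chose from these arrays or followed up are given for their differences alone. CCDC28B, PHF21A, PGC and CXCL2 differed by -0.13, 0.085, 0.14 and -0.039, each less than its combined error. Several were chosen as altered in both lines, so that nothing is read from the small size. IL11, a cytokine, differed by -0.29 (combined error 0.38) and SREK1IP1, a partner of a splicing regulator, by -0.43 (combined error 0.35). RASL10B, a small GTPase, had signals of 51.5 and 16.5 in MKN74 and 87.6 and 48.6 in MKN45 and differed by 0.79 (combined error 0.41), being lower in both lines and more so in MKN74. Of the matrix metalloproteinases, MMP1 had signals of 36.8 and 80.4 in MKN74 and 114 and 167 in MKN45 and a difference of -0.58 (combined error 0.34). MMP9 had signals of 113 and 253 in MKN74 and 38.9 and 46.2 in MKN45 and a difference of -0.91 (combined error 0.34). Both genes had log2 ratios above 0 in each line, and smaller ones in MKN45. For MMP9 in MKN45 the log2 ratio was 0.25, with a spot error of 0.25, so that a rise there is not shown. MMP7 was not detected in MKN74, and its signals in MKN45 were 359 and 729.6.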

How the data were processed

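RNA of 2 gastric cancer lines was measured on 2 two-colour Agilent arrays, 1 per line, with NC siRNA in Cy3 and SET7/9 siRNA in Cy5 on both, and with no dye swap. Per the file headers and the submitters' processing notes, Agilent Feature Extraction 10.7.3.1 made the deposited intensity values by background subtraction and linear and LOWESS dye normalization, and the deposited log10 ratios of Cy5 to Cy3 with their modelled errors. The table of log2 ratios deposited by the authors equals log2(10) times these ratios within rounding. Probe coordinates are those of the files (GRCh37). No saturated gene spot was found, and 549 and 534 outlier spots were left out.

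Log2 ratios were averaged over spots and subtracted between lines in Python 3.11.15, with numpy 2.4.6 and pandas 2.3.3. A probe counted as well above background where at least 50% of its spots were, in each channel. The cutoff of 1.5-fold is that of the study, and the combined error is the root of the sum of both squared errors. With 1 array per line no p-value was computed. Normexp (offset 50) and loess used limma 3.58.1 in R 4.3.3, and the trend was removed by lowess (30% span, statsmodels 0.14.6). The calculation was tested on simulated data. Of 27134 RefSeq probes, 25771 (95.0%) were matched to a current symbol through the accession. Promoters are from RefSeq for GRCh38.p14, 250 bases before to 50 after the start. All columns of samples were mapped (0 unmapped).

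The members and the 44 gene lists were chosen with earlier results of these data known. Genes were named by rule: SETD7; the 10 highest and 10 lowest differences; the 8 genes in each direction with the largest smallest difference over several probes; the 6 with the largest opposite ratios; up to 4 members past 1.5-fold in each direction per described list, or else its 2 largest; and genes the study selected. Lists with at least 6 measured genes were ranked, and the 5 at either end described. Other members were named after their values were seen, to show families and exceptions. Values of some genes that the rule or the lists cover are not reported here.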

Additional observations from a re-analysis of the deposited data

Results flagged for a closer look

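SLC26A9 had a response difference of -1.27. Its log2 ratio was past 1.5-fold in both lines, higher with SET7/9 siRNA in MKN74 (0.60) and lower in MKN45 (-0.66). With 1 array per line and 1 measured probe, this difference was not tested.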

How the results depend on the processing

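The counts of 278 higher and 161 lower probes became 37 and 21 with a 2-fold cutoff, 160 and 90 when a difference also had to pass the normal bound on its combined error, 37 and 16 after normexp and loess, and 640 and 601 when 1 channel per array had to be well above background (19595 probes). Genes counted once by the mean of their probes gave 141 and 95. Median centring without dye normalization, the deposited table, removal of the trend with signal and inclusion of outlier spots kept both counts within 1.5 times. Of the medians of the 10 lists described in the report, that of metallothioneins changed sign under median centring (-0.043) and the other 9 kept theirs under the alternatives chosen earlier. Of the medians of the 33 other lists compared, 12 changed sign under at least 1 of these alternatives. An alternative chosen after seeing the data kept members with levels within 2-fold between the lines. It gave 0.048 for gastric mucosa genes and -0.10 for membrane-bound mucins and anion exchangers, both of the opposite sign, 0.032 for metallothioneins, 0.052 for ATF4 amino-acid response genes, 0.20 for MAPK pathway output and feedback genes, and 0.23 for integrins and laminins. The causes were not tested. After normexp and loess, 44 of 67 single-gene differences moved by more than the SD of repeated spots (0.12). No paired analysis was possible because each line had 1 array, and for the same reason no array could be left out. Dim probes limit single values, and the number of arrays limits the precision of all.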

Other observations

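Lysine methyltransferases and demethylases, the family of SET7/9 itself, had a median difference of 0.088 over 45 genes. Of these, 13 were below 0, against 51.1% of all genes. Past 1.5-fold was 1 gene, where 1.21% of all genes were higher, which is too few to describe the list. That gene was KDM6B, a demethylase of histone H3 lysine 27, with signals of 97.6 and 87.5 in MKN74 and 46.2 and 69.2 in MKN45 and a difference of 0.74 (combined error 0.32). Methyltransferases of histone H3 lysine 4, picked after their values were seen, included SETD1B at 0.43, KMT2D at 0.33 and SETD1A at 0.088. KMT2C was at 0.28 and 0.24 at its probes, KMT2B at 0.19 and -0.0059, and KMT2A at 0.18 at its brightest probe, the others being at -0.12 and 0.47. Below 0 were SMYD3 (-0.31) and EZH2 (-0.20), the catalytic subunit of the polycomb complex. NRF2 antioxidant genes had a median of 0.048 (-0.0017 under median centring), with 2 of 25 genes past 1.5-fold. These were the aldo-keto reductases AKR1B10, with signals of 40.5 and 26.2 in MKN74 and 2097 and 2362 in MKN45 and a difference of 0.80 (combined error 0.37), and AKR1C1, whose relative AKR1C3 was at 0.41. Of the 25, 18 were above 0, with 7 above the spot bound and none below it. Over all genes, 48.9% were above 0, 10.8% above the bound, 9.67% below it and 1.21% at least 1.5-fold higher. FTL, a ferritin chain, was at 0.37 and 0.43 at its probes, while the classical NRF2 targets HMOX1, GCLC and TXNRD1 were at 0.048, -0.057 and 0.00049.

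NF-kB targets and chemokines had median log2 ratios of 0.23 in MKN74 and 0.29 in MKN45, and the median difference was 0.059 over 17 genes and -0.014 after normexp and loess. BIRC3, an inhibitor of apoptosis, differed by -0.60 (combined error 0.31), with signals of 145 and 284 in MKN74 and 258 and 331 in MKN45. ICAM1, an adhesion molecule, went the other way by 0.74 (combined error 0.36), with signals of 2405 and 2312 in MKN74 and 25.3 and 39.9 in MKN45. Among other listed genes past 1.5-fold, CHAC1, a glutathione-degrading enzyme of the ATF4 response, had signals of 18369.6 and 18722 in MKN74 and 422 and 246 in MKN45 and a difference of -0.81 (combined error 0.30), against -0.35 at its other probe. SERPINB5, an epithelial serpin, had signals of 2006 and 2766 in MKN74 and 2961 and 2455 in MKN45 and a difference of -0.73 (combined error 0.29). ADM, the hypoxia-inducible peptide adrenomedullin, differed by 0.73 (combined error 0.29), with signals of 11597 and 10573 in MKN74 and 433 and 653 in MKN45. PARD6B, a polarity gene, differed by 0.43 at its brightest probe and by -0.46 at the other.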
